A study of Mus musculus with 234 samples.

Results

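Dim cardiomyocytes (CMs) of homozygous CAG-BAG3 P209L mice were compared with CMs of control mice. A CM was taken as dim or control by its genotype label, homo_dim or control, and was kept when 1000 or more genes were detected in it. These criteria left 66 of 68 dim CMs, 18 of 18 from mouse M25 and 48 of 50 from mouse M116, and 28 of 33 control CMs, 20 of 24 from mouse M26 and 8 of 9 from mouse M73. They were 94 of the 219 CMs kept in the whole series, and the mouse was the replicate (2 mice per group). Both dim mice carried 2 copies of a construct in the Rosa26 locus, in which the CAG promoter drives human BAG3 P209L fused to eGFP after recombination by PGK-Cre, and the line was derived from 1 embryonic stem cell clone. By the study's definition the recombination, which removes a stop cassette, may have occurred in 1 or 2 of these copies. The number in M25 and M116 is not given. "Dim" describes the eGFP fluorescence of the cell as judged under the macroscope, and the bright CMs of the series were picked from the same M25 and M116 hearts. The control mice have the strain label C57BL/6, and their titles name them wt. The mice were 2 weeks old and of mixed background. The methods of the study define controls more widely, as siblings that were wild type or carried the Cre or the construct alone. CMs were isolated by Langendorff perfusion, picked by hand, and their mRNA was read by SMART-seq2, a method that covers the full length of transcripts and uses no molecular identifiers.

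BAG3 is a co-chaperone of the Z-disc. It links HSPA8 to small heat shock proteins such as HSPB8 and hands damaged filamin C to autophagy, and the P209L exchange lies in a motif that binds small heat shock proteins. In the weeks after birth, mouse CMs replace fetal isoforms of contractile and mitochondrial proteins by adult ones, leave the cell cycle and build up oxidative phosphorylation, for which the coactivator encoded by Ppargc1a is a main regulator.

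The summed counts of the kept CMs were 18381089 and 34444576 for dim CMs of M25 and M116, and 19579664 and 4096122 for control CMs of M26 and M73. The names of the count columns hold the tag GL-9122b for M25 and M26 and tags of the series GL9989 for M116 and M73. These tags were taken here as plates, so each plate series held 1 dim and 1 control mouse. Control M73 had GL9989-1 and the dim CMs of M116 had GL9989-2 and GL9989-3, so they shared no plate, unlike M25 and M26. A comparison within GL9989 is therefore not within a plate. Mouse M73 stood apart by its depth, with a median of 4479.5 genes per CM against 5542 to 6219.5 in the other mice. Levels are given as CPM, counts per 1000000 counts of a sum or of a CM. The 12 CM markers together had 104700 and 94490 CPM in the dim mice and 107100 and 111100 CPM in the control mice, and each was detected in every mouse. In the fit used for all gene lists 10 of these 12 markers had lower and 2 higher values in dim CMs (median log2 fold change −0.48, where that of all genes tested was 0.10), and both dim mice were below both control mice in 6 (50%, against 14.2% of all genes). Counts of other cells were concentrated in few CMs: markers of endothelium, fibroblasts, macrophages and erythrocytes reached 1000 CPM in 6 of 18 and 10 of 48 dim CMs and in 1 of 20 and 2 of 8 control CMs. The summed macrophage markers lay at 111.8 and 102.0 CPM in M25 and M116 and at 6.49 and 22.7 CPM in M26 and M73, and 1 CM gave 99.7% of them in M25. Endothelial markers summed to 583 and 452 CPM in dim and to 312 and 446 CPM in control mice, and fibroblast markers to 100.3 and 305 CPM and to 208 and 90.3 CPM. The part of these transcripts in the differences below was not tested except by leaving out the CMs that reached 1000 CPM.

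The transgene was read first, as 2 features: hBAG, the human BAG3 sequence, and BAG-eGFP. hBAG counts were 197 in M25 and 3431 in M116, against 7 in M26 and 2 in M73. BAG-eGFP counts were 137 and 3365 against 1 and 0, where a count of 0 allows up to 3 counts. Over the summed mice the CPM of hBAG was 180.7 times that of control (95% exact interval 95.1 to 395) and that of BAG-eGFP 1570 times (281.5 to 62010), intervals that cover counting error only and not the spread between mice. Dim CMs thus carried transgene reads in both mice, but the mice were far apart.

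For each mouse the hBAG counts were set against those of endogenous Bag3, counts not being scaled to transcript length. The ratio was 0.0481 in M25 (0.0415 to 0.0555) and 0.640 in M116 (0.613 to 0.668), and 0.00145 in M26 and 0.00241 in M73. The means were 0.344 ± 0.418 (SD, n = 2) in dim and 0.00193 ± 0.000680 (SD, n = 2) in control mice. The groups did not overlap, and the two-sided exact permutation test over mice gave p = 0.33, the smallest value that 2 against 2 mice allow. hBAG was counted in 55.6% and 89.6% of dim CMs and in 25% and 12.5% of control CMs. After thinning every CM to 200000 counts these shares were 33.3% and 75% against 0% and 12.5% (exact permutation p = 0.33). The median CM of M116 had a ratio of 0.461, and in M25 it was 0.00339. Endogenous Bag3 itself was at 207 and 137 normalized CPM in the dim mice, below 261 and 236 in the control mice (log2 fold change −0.53, SE 0.35). Normalized CPM are CPM of the summed CMs of a mouse, corrected by edgeR's TMM factor.

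Over 12195 genes tested, none (0.0%) passed an adjusted p of 0.05 in the quasi-likelihood test of edgeR with Benjamini-Hochberg adjustment. At an unadjusted p under 0.05 there were 539 higher (4.42%) and 222 lower genes (1.82%). DESeq2 called 26 genes higher (0.213%) and 29 lower (0.238%) in dim CMs, and edgeR with the plate series as a block called 6 higher (0.0492%) and 6 lower (0.0492%). Of the 12 genes called with the block, 10 were also among the 55 of DESeq2, that is 83.3% of the former and 18.2% of the latter. In 21 of the 29 lower and 12 of the 26 higher DESeq2 calls, 1 CM supplied over 50% of the counts of a mouse of the higher group, which was so for 1 of the 12 block calls, Zfp14. Both dim mice lay above both control mice in 2900 genes (23.8%) and below them in 1732 (14.2%), and these shares are the background for the gene groups described here. The median log2 fold change of all genes was 0.10, and 0.38 when library size alone replaced the TMM factors. Below, "called by both" means past an adjusted p of 0.05 in DESeq2 and in the block fit of edgeR, and the main fit without the block gave an adjusted p of 0.73 for every gene of which this is said except Gm13394. The transgene features were called by both, hBAG with a log2 fold change of 6.77 (SE 1.34; adjusted p = 9.0e-06 in DESeq2, 0.00899 with the block). Without the CMs rich in markers of other cells the block call of hBAG was lost (log2 fold change 5.02, adjusted p = 0.0752 in edgeR). DESeq2 still called hBAG there (adjusted p = 0.0018), and BAG-eGFP was still called by both.

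Ppargc1a, which encodes the coactivator PGC-1α of mitochondrial biogenesis, was lower in dim CMs. Its level was 292 and 312.5 normalized CPM in M25 and M116, and 913 and 1000 in M26 and M73. The sums of the mice of a group lay close to each other, although the 2 plates that held the dim CMs of M116 had 433 and 243 CPM. The log2 fold change was −1.66 (SE 0.29), called by both (adjusted p = 0.00105 in DESeq2 and 0.0103 with the block). Without the CMs rich in markers of other cells both calls were lost (adjusted p = 0.0699 in DESeq2 and 0.0729 with the block), with a log2 fold change of −1.49. Every CM of the 4 mice had a count. The median CM held 317 and 330.5 CPM in the dim mice and 686 and 678 CPM in the control mice, but single CMs overlapped, with up to 457 and 1152 CPM in dim CMs and down to 268 and 320 CPM in control CMs. Its promoter is shown as that of the called lower gene with a known role in CM metabolism. It lies at chr5:51567676-51567975 (minus strand, 250 bases before to 50 after the start, RefSeq on GRCm38.p6), and the capitals mark the only match on either strand to the cAMP response element core TGACG (read as CGTCA on the printed strand), a motif of 5 letters that 20.8% of 32851 mouse promoters hold.
Ppargc1a promoter: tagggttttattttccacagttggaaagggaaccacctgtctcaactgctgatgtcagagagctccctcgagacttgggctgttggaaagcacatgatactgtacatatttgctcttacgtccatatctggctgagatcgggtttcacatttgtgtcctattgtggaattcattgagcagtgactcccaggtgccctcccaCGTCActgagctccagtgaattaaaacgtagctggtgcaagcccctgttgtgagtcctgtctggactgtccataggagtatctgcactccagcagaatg
Perm1, a muscle regulator of the same pathway, was at 128 and 95.5 normalized CPM in dim and 219 and 194 in control mice (log2 fold change −0.89, SE 0.34, unadjusted p = 0.037), and was not called by either. The related coactivator gene Ppargc1b had values of 36.5 and 34.4 against 61.3 and 44.1 (−0.58, SE 0.46).

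Mt1 encodes metallothionein 1, a small zinc-binding protein whose gene responds to metals and glucocorticoids. It was at 304 and 113 normalized CPM in dim mice M25 and M116 and at 1203 and 954 in control mice M26 and M73. The log2 fold change was −2.37 (SE 0.51), called by both (adjusted p = 0.00148 in DESeq2, 3.6e-05 with the block). In single cells the highest dim CM reached 492 CPM, and the lowest control CM of M26 and M73 had 338 and 482 CPM, so the CMs of the groups hardly overlapped. Its paralog Mt2 was counted rarely, at 1.93 and 0.0766 against 6.64 and 14.2 normalized CPM (−3.38, SE 1.76), and was not called. The Mt1 promoter, at chr8:94178839-94179138 (plus strand, RefSeq on GRCm38.p6), is shown for its metal response elements: the capitals mark 3 matches to their core, TGCACNC or TGCGCNC on either strand, which 25.7% of the promoters hold at least once.
Mt1 promoter: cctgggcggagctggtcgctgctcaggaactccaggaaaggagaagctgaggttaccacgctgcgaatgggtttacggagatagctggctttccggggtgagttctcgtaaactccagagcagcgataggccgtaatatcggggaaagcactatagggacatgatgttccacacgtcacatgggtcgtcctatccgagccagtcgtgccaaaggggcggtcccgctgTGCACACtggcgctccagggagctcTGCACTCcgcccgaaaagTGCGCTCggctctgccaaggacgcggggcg
A match to such letters is a description of the sequence and gives no information on binding in these cells.

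The other lower genes called by both were Gadd45g and Zfp14. Gadd45g, a growth arrest and stress gene, was at 62.0 and 57.7 normalized CPM in dim and at 269 and 259 in control mice (log2 fold change −2.14, SE 0.33; adjusted p = 3.7e-05 in DESeq2 and 0.00899 with the block). Without the CMs rich in markers of other cells it was called by DESeq2 alone, the block fit giving a log2 fold change of −1.83 and an adjusted p of 0.0752. Median CMs followed the sums, with 60.2 and 43.5 CPM against 224 and 242 CPM. Zfp14, a zinc finger gene, rested on 2 of 20 and 1 of 8 control CMs. Lars2, the mitochondrial leucyl-tRNA synthetase, and Lrtm1, a leucine-rich repeat membrane protein, were called with the block only: Lars2 had 4350 and 1358 against 6110 and 12800 normalized CPM, and Lrtm1 81.5 and 151 against 243 and 557. Lars2 in M25 was close to its plate partner M26 (log2 difference −0.49) and in M116 far from M73 (−3.24), so its size rested on the GL9989 mice.

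Further genes were lower by the tests of DESeq2 alone. Cdkn1a, the cyclin-dependent kinase inhibitor p21, was at 80.3 and 61.3 against 283 and 184 normalized CPM (log2 fold change −1.72, SE 0.39, adjusted p = 0.0186). Hk2, the hexokinase that traps glucose in muscle cells, was at 71.2 and 87.4 against 246 and 197 (−1.48, SE 0.35, adjusted p = 0.0428), and its median CM held 43.9 and 73.4 CPM against 209 and 129.5 CPM. In both genes the median CM of either dim mouse lay below that of either control mouse. Slc38a3, a glutamine transporter, was counted in 8 of 18 and 15 of 48 dim CMs and in 20 of 20 and 6 of 8 control CMs (19.5 and 11.6 against 72.7 and 120.0 normalized CPM, adjusted p = 0.0025). Kcnj2, the channel of the inward rectifier current that holds the resting potential, had 8.97 and 9.47 against 31.3 and 106.6 (−2.90, SE 0.71, adjusted p = 0.0147). Its log2 fold change was −1.76 without control M73. Without the CMs rich in markers of other cells DESeq2 still called Slc38a3 (adjusted p = 0.0159), but not Cdkn1a (0.24), Hk2 (0.388) or Kcnj2 (0.18). The log2 fold changes of these 3 genes were then −1.57, −1.40 and −2.64. DESeq2 also called P2rx5, Vwf, Cep135 and Fam161b. P2rx5 was counted in 10 of 20 control CMs of M26 and 1 of 8 of M73, and Fam161b in 12 of 20 and 2 of 8. Cep135 was counted in 3 of 20 and 3 of 8 control CMs, and Vwf, an endothelial gene, in 1 of 20 and 2 of 8.

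Ankrd1 was higher in dim CMs. It encodes a stretch-responsive ankyrin repeat protein that binds titin and also acts in the nucleus. Its level was 807 and 593 normalized CPM in M25 and M116, and 193 and 227 in M26 and M73. The log2 fold change was 1.74 (SE 0.33), called by both (adjusted p = 0.0061 in DESeq2, 0.0127 with the block). Without the CMs rich in markers of other cells it was called with the block alone (adjusted p = 0.0239), and DESeq2 gave 1.65 and an adjusted p of 0.168. The median CM held 579.5 and 458 CPM in the dim mice and 69.1 and 168 CPM in the control mice. The Ankrd1 promoter lies at chr19:36119795-36120094 (minus strand, RefSeq on GRCm38.p6) and is shown for its M-CAT letters, the motif of TEAD factors in muscle genes. The capitals mark 2 matches to CATTCC, both read as GGAATG on the printed strand, and 14.7% of the promoters hold such a match.
Ankrd1 promoter: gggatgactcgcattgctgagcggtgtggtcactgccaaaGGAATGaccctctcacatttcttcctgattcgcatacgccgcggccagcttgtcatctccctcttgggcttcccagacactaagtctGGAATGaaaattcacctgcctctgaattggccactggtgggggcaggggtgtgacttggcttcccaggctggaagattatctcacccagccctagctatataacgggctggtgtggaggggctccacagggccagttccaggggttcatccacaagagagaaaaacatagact

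Tnni1 and Atf3 were also called by both, and the dim mice differed widely in them. Tnni1, the slow skeletal troponin I that the heart uses before birth, was at 69.1 and 253 normalized CPM in M25 and M116 and at 13.1 and 3.13 in M26 and M73 (log2 fold change 4.25, SE 0.90; adjusted p = 3.7e-05 in DESeq2, 0.00079 with the block). It was counted in 61.1% and 95.8% of dim CMs and in 40% and 37.5% of control CMs (exact permutation p = 0.33). Atf3, a stress-induced transcription factor, was at 29.5 and 277 against 9.23 and 11.9 (3.87, SE 1.01; adjusted p = 0.0034 in DESeq2, 0.0113 with the block). It was counted in 72.2% and 100% of dim CMs and in 40% and 37.5% of control CMs (exact permutation p = 0.33). In both genes M116 was the higher dim mouse, as it was for the transgene. The dim CMs of M116 lay on 2 plates, 29 on plate 2 and 19 on plate 3, which had 294 and 278 CPM of Tnni1, 309 and 325 CPM of Atf3 and 108 and 87.2 CPM of hBAG. As for Ppargc1a, values differed more between these plates for other genes, such as Lars2 with 2050 and 809 CPM and Ankrd1 with 767 and 539 CPM.

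Higher levels by DESeq2 alone were found for Peak1, a pseudokinase of the cytoskeleton, with 20.6 and 38 against 1.46 and 0.284 normalized CPM (log2 fold change 4.90, SE 1.09, adjusted p = 0.00090), and for Scd4, a stearoyl-CoA desaturase of the heart, with 69.9 and 71.8 against 16.1 and 19.3 (2.00, SE 0.47, adjusted p = 0.0488). Scd4 was counted in 16 of 18 and 35 of 48 dim CMs and in 5 of 20 and 2 of 8 control CMs. Both calls were lost without the CMs rich in markers of other cells (adjusted p = 0.0602 for Peak1 and 0.257 for Scd4 in DESeq2). The log2 fold changes of DESeq2 were then 5.10 and 1.92. Lclat1, an acyltransferase that remodels cardiolipin, was at 165 and 234.5 against 82.4 and 53.2 (1.55, SE 0.40) and was not called. The remaining genes of this rank were Cav1 and Lyz2. Cav1, abundant in endothelium, was at 70.1 and 83.8 against 23.1 and 21.9 (log2 fold change 1.77), but without the CMs rich in markers of other cells the value was −1.56. The macrophage gene Lyz2, called by DESeq2 (adjusted p = 0.0147), was counted in 1 of 18 and 3 of 48 dim CMs.

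**Figure D1:**
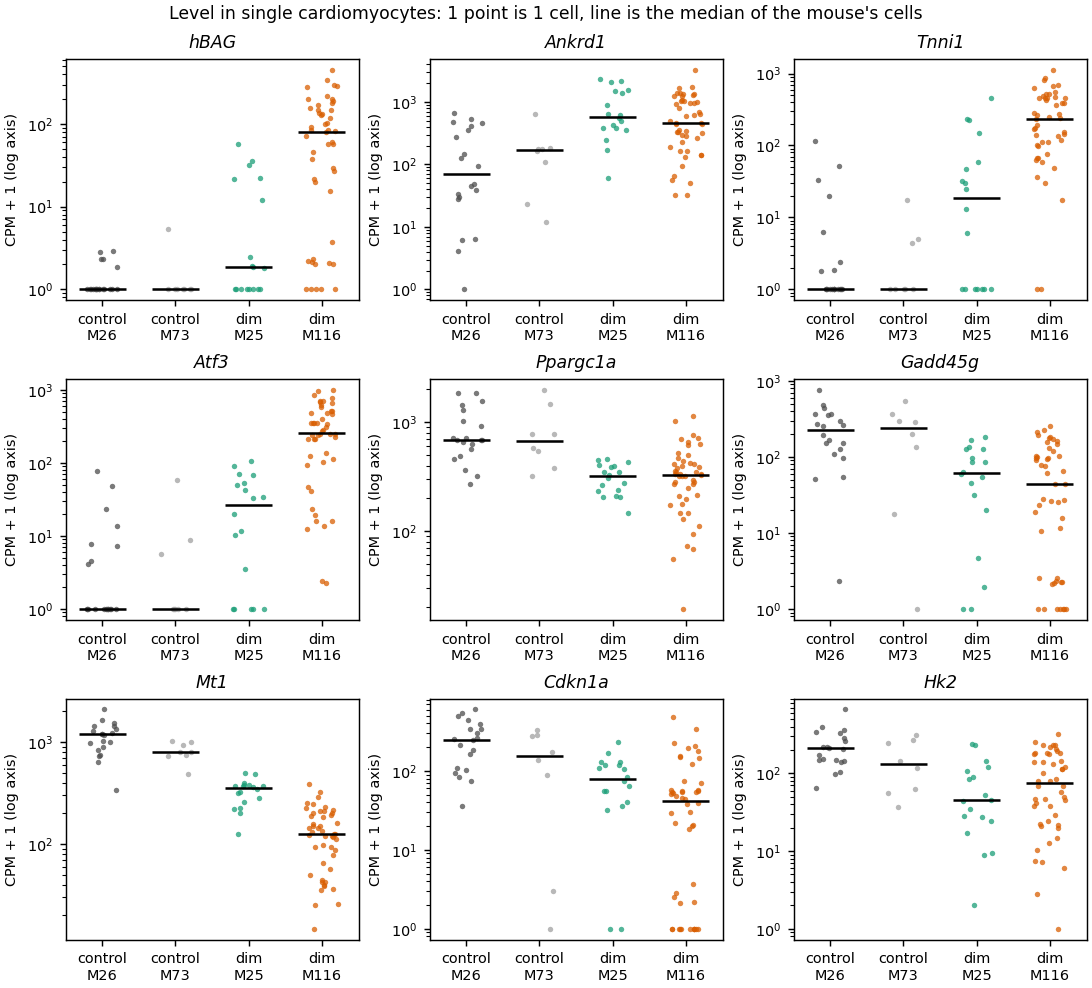
Levels of hBAG and 8 named genes in single CMs, as CPM + 1 on a log axis, by mouse. Each point is 1 CM and each line the median of the CMs of the mouse (20 of M26, 8 of M73, 18 of M25, 48 of M116). The medians of Ppargc1a and Mt1 were lower in both dim mice, with single CMs of Ppargc1a overlapping between the groups, and hBAG, Tnni1 and Atf3 were highest in M116.

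Of all features, Gm13394 had the smallest p, and it is named although it was chosen after its values were seen. It was at 74.5 and 167 normalized CPM in dim and at 0.378 and 0.284 in control mice (log2 fold change 8.39, SE 0.75, adjusted p = 0.17 in the main fit of edgeR, 9.6e-20 in DESeq2, 3.8e-09 with the block). It was counted in 18 of 18 and 48 of 48 dim CMs but in 6 of 20 and 1 of 8 control CMs. GENCODE lists it as a processed pseudogene, and 951 of its 976 words of 25 bases (97.4%) also occur in transcripts of Gapdh, so its reads cannot be assigned with certainty. The cause of its near absence from control CMs was not tested.

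**Figure D2:**
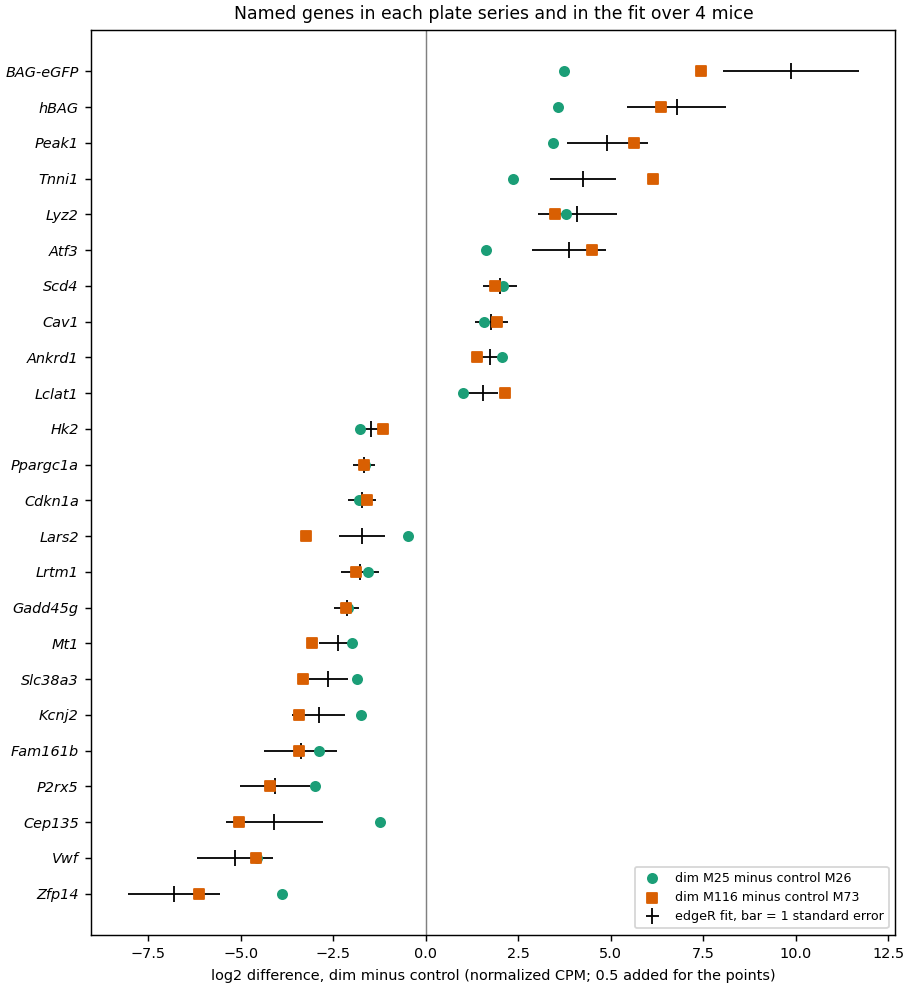
Log2 difference between dim and control CMs for the named genes, with the edgeR fit over 4 mice (black, bar = 1 SE) beside the differences within the plate series (M25 minus M26, circles, and M116 minus M73, squares; normalized CPM with 0.5 added). Ppargc1a and Gadd45g had nearly the same value in both series, whereas hBAG, Tnni1, Atf3 and Lars2 differed more in M116 against M73.

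Nuclear genes of oxidative phosphorylation mostly had lower values in dim CMs, by small amounts. Of 81 such genes, 73 had a lower and 8 a higher value in dim CMs (54 were lower with library size alone), none was called, and their median log2 fold change was −0.35 beside 0.10 for all genes. In 26 of them both dim mice were lower than both control mice (32.1%, against 14.2% of all genes), and in 0 both were higher. For complex I, the NADH dehydrogenase, all 36 genes had a lower value under TMM scaling and 26 with library size alone, with a median of −0.37. Relative to the median of all genes, the median of the 81 genes was −0.45, and −0.46 with library size alone, −0.27 with equal weight for each CM, −0.34 in M25 against M26 and −0.85 in M116 against M73. Leaving out 1 mouse moved it between −0.73 (without M25) and −0.15 (without M116), so that its size rested largely on M116. The 12 CM markers had lower values as well, with a median of −0.59 relative to all genes, −0.21 in M25 against M26 and −1.19 in M116 against M73, and their part in this difference was not tested.

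The subunits with the smallest p were of complexes III to V. Atp5k, of ATP synthase, was at 444 and 345 against 719 and 880 normalized CPM (log2 fold change −1.02, SE 0.31, unadjusted p = 0.015). Uqcr11, of complex III, was at 1994 and 1698 against 3090 and 3068 (−0.74, SE 0.29). Cox7a1, the heart form of a cytochrome oxidase subunit, was at 1212 and 715 against 2223 and 1735 (−1.04, SE 0.36). In each of them both dim mice were below both control mice. Among 10 mitochondrially encoded features tested the median was −0.14, and the groups overlapped in COX1 (40270 and 45050 against 41630 and 18940). ND6 had 4582 and 3174 against 6525 and 6835 (−0.78, SE 0.33).

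Cytosolic ribosomal protein genes lay below the median of all genes as well. Of 83 cytosolic ribosomal protein genes, 69 had a lower and 14 a higher value, with a median of −0.25, and both dim mice were below both control mice in 42 (50.6%, against 14.2% of all genes). With library size alone 39 of the 83 had a lower value. Relative to all genes their median was −0.35, with −0.18 in M25 against M26 and −0.86 in M116 against M73. It was −0.15 without dim M116, −0.76 without control M26 and −0.11 with equal weight for each CM. The 12 CM markers were at −0.21 and −1.19 in the plate series, and their part in this list was not tested. Of 76 mitochondrial ribosomal protein genes, 56 had a lower value (median −0.19), and relative to all genes this median was −0.29 in the main fit but 0.23 when each CM had equal weight, so no direction is given for them.

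Other parts of energy metabolism were measured as 3 lists. The 22 genes of the TCA cycle were split into 11 higher and 11 lower, with a median of 0.00, but with library size alone 2 of the 22 were lower (median 0.28). Its median relative to all genes was −0.10, and 0.13 with equal weight for each CM. Of 30 genes of fatty acid oxidation and uptake, 22 had a higher and 8 a lower value (median 0.24), and neither sign relative to all genes held in both plate series (0.20 in M25 against M26, −0.10 in M116 against M73). Angptl4, a secreted inhibitor of lipoprotein lipase, was at 74.8 and 32.3 against 8.69 and 0.569 normalized CPM (3.45, SE 1.14) and was not called (adjusted p = 0.0686 in DESeq2 and 0.0526 with the block). Both called it without the CMs rich in markers of other cells (adjusted p = 0.0207 in DESeq2 and 0.0227 with the block, log2 fold change 4.24 and 4.84). In the electron transfer flavoprotein, Etfb was at 151 and 102 against 227 and 270.4 (−0.97, SE 0.35). Of 23 genes of glucose uptake and glycolysis 15 were lower and 8 higher (median −0.10), with Hk2 the lowest p, and both dim mice were below both control mice in 6 (26.1%, against 14.2% of all genes). With library size alone 7 of the 23 were lower. Relative to all genes the median was −0.20, with −0.51 without control M73 and 0.01 with equal weight for each CM.

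**Figure D3:**
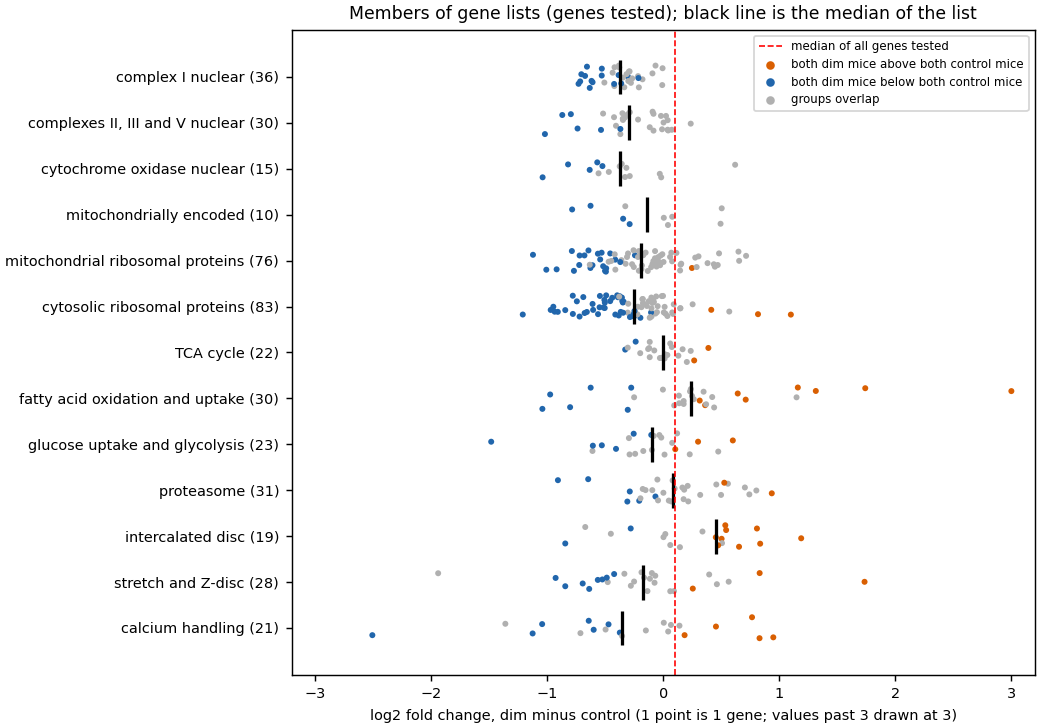
Log2 fold change, dim minus control, of the members of 13 gene lists (number of genes tested in brackets; values past 3 are drawn at 3). Orange points are genes with both dim mice above both control mice, blue points those with both below, grey points overlap, the black line is the median of the list and the dashed red line that of all genes tested. The 36 genes of complex I all lay left of 0, and the TCA cycle was centered on 0 under TMM scaling.

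Proteins that are exchanged during postnatal maturation were compared as pairs of isoforms, by the share of the later isoform in the counts of the pair. These are shares of counts and not of molecules, since transcript lengths were not taken into account. In 7 of 12 pairs both dim mice had a lower share than both control mice, in 0 a higher one, and in 5 the groups overlapped. No background over other pairs was measured, so these counts cannot be set against one. The share of Rpl3l, a ribosomal protein L3 of striated muscle, over Rpl3 was 21.8% and 22.7% in dim and 44.9% and 49.1% in control mice, the largest difference. That of Cox7a1 over Cox7a2 was 52.8% and 50.6% against 64.8% and 64.3%, and that of Cox8b over Cox8a 62.6% and 59.6% against 68.3% and 79.2%. In the sums the dim mice were close to each other in these pairs, but for Rpl3l the median CM had 9.58% in M25 and 21.6% in M116, and 1 CM gave 35.6% of the Rpl3l counts of M25.

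For troponin I, the share of the adult Tnni3 was 99.3% and 96.2% in dim and 99.9% and 99.98% in control mice. Eef1a2, the elongation factor form of adult muscle, made up 2.59% and 1.88% against 6.25% and 10.1% of the counts of Eef1a2 and Eef1a1, with 72.3% of the Eef1a2 counts of M73 from 1 CM. The median CM had 2.02% and 1.27% against 3.93% and 3.67%. Counts on Rpl3 and Eef1a1 are uncertain because both have many processed pseudogenes. Cox6a2 over Cox6a1 was at 88.5% and 86.9% against 89.7% and 89.3%, and Casq2 over Casq1 at 99.36% and 99.27% against 99.38% and 99.96%, so these pairs differed little. The myosin heavy chain pair Myh6 and Myh7, a usual marker of the fetal program, overlapped, with 99.1% and 98.6% Myh6 in dim and 99.1% and 99.6% in control mice. The pairs Ckm with Ckb, Slc2a4 with Slc2a1, Cpt1b with Cpt1a and Ldhb with Ldha overlapped as well.

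**Figure D4:**
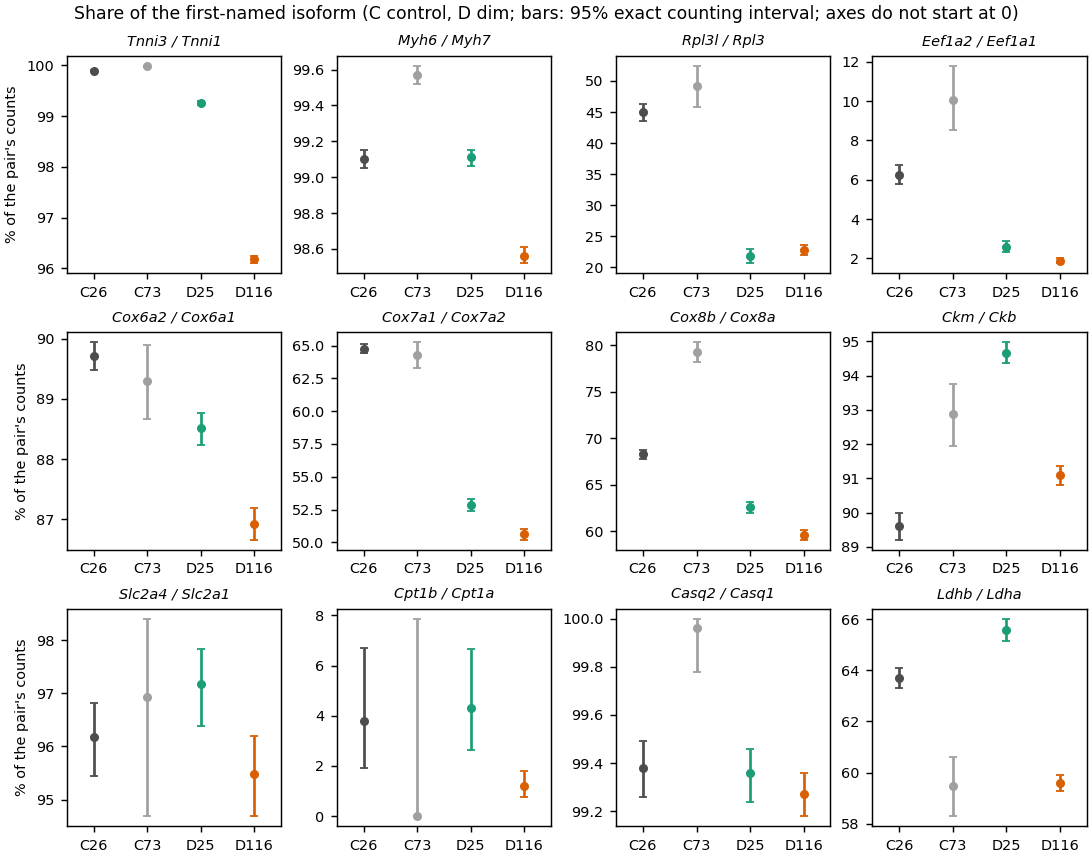
Share of the first-named isoform in the counts of 12 isoform pairs, in percent, for control mice M26 and M73 (C26, C73) and dim mice M25 and M116 (D25, D116). Bars are 95% exact intervals for counting error, and the axes do not start at 0. Rpl3l and Cox7a1 had a lower share in both dim mice, and Myh6 overlapped.

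As a list, 25 genes whose level goes up with postnatal maturation had 18 lower and 7 higher values in dim CMs, with a median of −0.50. Relative to all genes this median was −0.60, with −0.37 in M25 against M26 and −1.29 in M116 against M73, and with −0.35 without M116 and −0.80 without M25. The 12 CM markers were at −0.59, and at −0.21 and −1.19 in the plate series, and their part in this list was not tested. Both dim mice were below both control mice in 10 of them (40%, against 14.2% of all genes), among them Ppargc1a, Kcnj2, Cox7a1 and Ryr2, the calcium release channel (1133 and 1206 against 1672 and 3430 normalized CPM, log2 fold change −1.12, SE 0.40). Of 21 genes whose level goes down with maturation, 12 had higher values and the median was 0.23, but no direction is given for them. With 1 mouse left out the median lay between 0.06 (without control M73) and 0.59 (without control M26), and it was −0.13 in M25 against M26, and 0.12 relative to all genes. Of 13 genes of the fetal program 6 had higher and 7 lower values (median −0.04), with both dim mice below both control mice in 2 (15.4%, against 14.2% of all genes) and above in 0. Nppa, which encodes atrial natriuretic peptide, was at 408 and 6.07 against 19.4 and 45.5, higher in M25 than in M26 and lower in M116 than in M73, and Nppb at 773 and 297.5 against 404 and 143.

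Calcium handling and ion channel genes had lower values in part. Of 20 ion channel genes 12 were lower (median −0.46, and −0.56 relative to all genes), and both dim mice were below both control mice in 30% and above in 20%. That relative median was −0.30 without control M73, −0.21 without dim M116 and −0.28 with equal weight for each CM. Of 21 calcium genes 12 were lower, and both dim mice were below both control mice in 33.3% and above in 23.8%, against 14.2% and 23.8% of all genes. Relative to all genes the calcium median was −0.455, with −0.02 in M25 against M26 and −0.745 in M116 against M73. Left-out mice moved it between −0.88 (without control M26) and −0.11 (without control M73). Jph2, junctophilin of the dyad, was at 64.0 and 50 against 94.0 and 141 normalized CPM (−1.04, SE 0.40), and Pln, phospholamban, at 820 and 730 against 1206 and 1212 (−0.64, SE 0.28). Atp2a2, the calcium pump that phospholamban inhibits, was at 4951 and 5436 against 6460 and 6999 (−0.37, SE 0.30). Of 20 genes of the sarcomere 9 had higher and 11 lower values. Both dim mice were above both control mice in 5 (25%) and below in 6 (30%), against 23.8% and 14.2% of all genes. Among those below were Tnni3 and Tnnt2, with 9290 and 6357 against 13320 and 13830 for Tnni3 and 7123 and 5530 against 10240 and 10260 for Tnnt2, and neither was called.

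The partners of BAG3 and its pathway were measured as a list of 20 genes, of which 4 had higher and 16 lower values (median −0.23), and none was called. With library size alone 8 of the 20 were lower. Relative to all genes the median was −0.33, with −0.68 without control M26 and 0.03 with equal weight for each CM. Hspb8, the small heat shock protein that binds BAG3, was at 177 and 156 against 258 and 237 normalized CPM (−0.57, SE 0.31), Synpo2, the autophagy adapter at the Z-disc, at 61.4 and 55.1 against 92.2 and 79.0 (−0.56, SE 0.38), and Hspb7 at 235 and 286 against 290.5 and 463 (−0.53, SE 0.36). Of 21 heat shock proteins and co-chaperones 9 were higher and 12 lower (median −0.02), of 33 autophagy and lysosome genes 21 were higher and 12 lower (median 0.20), and of 31 proteasome genes 19 were higher and 12 lower (median 0.08). With library size alone 6 of the 21, 10 of the 33 and 3 of the 31 were lower. Leaving out 1 mouse moved the medians between −0.18 and 0.11 for heat shock proteins, −0.02 and 0.43 for autophagy and −0.07 and 0.28 for the proteasome, so the sign of each turned. Relative to all genes these ranges were −0.53 to −0.02, −0.15 to 0.03 and −0.29 to 0.06, so that of heat shock proteins stayed negative. With equal weight for each CM the medians were 0.46, 0.43 and 0.74, and relative to all genes 0.24, 0.21 and 0.52. Ctsd, cathepsin D of the lysosome, was at 267 and 223 against 406 and 438 (−0.79, SE 0.30), and Lamp2 of the lysosome membrane at 98.4 and 114.5 against 74.7 and 46.4 (0.81, SE 0.41). For these protein quality control lists, the shares with non-overlapping mice were 6.45% to 18.2% above and 18.2% to 25% below in dim CMs, against 23.8% and 14.2% of all genes.

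Stress genes pointed in different directions. Of 18 genes of the integrated stress response 12 had higher and 6 lower values. The median was 0.28, and relative to all genes 0.18, but −0.11 with equal weight for each CM. Both dim mice were above both control mice in 7 (38.9%) and below in 2 (11.1%), against 23.8% and 14.2% of all genes. Among the lower were Atf4, its transcription factor, at 50.3 and 70.0 against 112 and 97.2 normalized CPM, and Ddit3, which encodes CHOP, at 6.38 and 9.42 against 25.9 and 68.0 (−2.56, SE 0.73, adjusted p = 0.0686 in DESeq2). Of 14 p53 targets and Gadd45 genes, 9 were lower, led by Cdkn1a and Gadd45g, and Phlda3 had higher values (18.0 and 6.92 against 0.594 and 0). Among 24 immediate-early genes 13 were higher, and Fos, chosen after its values were seen, was at 20.8 and 106.3 against 19.5 and 1.42 (2.56, SE 1.22). Such genes also respond to cell isolation, whose part was not tested. Of the 7 genes that the study lists as overexpressed in bright CMs, all had higher values in dim CMs too (median 1.74), and both dim mice were above both control mice in 6 (85.7%, against 23.8% of all genes). Of the 15 genes that it lists for energy metabolism in bright CMs, 12 had higher and 3 lower values in dim CMs (median 0.07, and −0.03 relative to all genes), and both dim mice were above both control mice in 2 (13.3%) and below in 0. In bright CMs 9 of the 15 had higher and 6 lower values against the same control mice (median 0.03). Both lists were chosen by the study on these samples, so neither is independent evidence of a direction. The first held Ankrd1, Atf3 and Btg2, an antiproliferative gene at 88.8 and 373 against 75.3 and 41.8.

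At the intercalated disc, which joins CMs end to end, 15 of 19 genes had higher values (median 0.45), and both dim mice were above both control mice in 9 (47.4%, against 23.8% of all genes). None was called. Gja1, connexin 43 of the gap junctions, was at 345 and 490.5 against 242 and 290 normalized CPM (0.65, SE 0.33), and the integrin subunit Itgb1 at 262.5 and 287 against 203.5 and 192 (0.47, SE 0.30). Relative to all genes the median was 0.35, 0.38 with library size alone and 0.60 with equal weight for each CM, but −0.29 without control mouse M26 and 0.02 in M116 against M73. Of 28 stretch and Z-disc genes, 20 were lower and 8 higher (median −0.18), but 12 of the 28 were lower with library size alone. That median was −0.28 relative to all genes, with −0.56 without control M26, −0.10 without dim M116 and −0.06 with equal weight for each CM.

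Proliferation genes had higher values, with counts in few CMs. Of 21 cell cycle genes 18 had higher values, with a median of 1.81, which was 0.66 with equal weight for each CM and 5.41 without control M26. These 21 were the genes of a list of 26 with enough counts to be tested. Some passed that filter by their dim counts alone. Control counts were 1 and 0 for Top2a, 4 and 0 for Mki67 and 0 and 0 for Cdk1. The number of higher values and the median were thus partly set by the filter. Of the 21, DESeq2 alone called Top2a and Mki67 as higher (adjusted p = 0.00049 and 0.0278) and the inhibitor Cdkn1a as lower (0.0186). Top2a, the topoisomerase of dividing cells, was at 12.4 and 19.8 against 0.0540 and 0 normalized CPM and was counted in 3 of 18 and 10 of 48 dim CMs, with 91.8% of the counts of M25 in 1 CM. Without the CMs rich in markers of other cells Top2a and Mki67 did not reach the count needed to be tested. Csf1r, a gene of macrophages, and Hmox1 were called by DESeq2 as higher too, and 1 CM held all counts of each in M25.

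To place the dim CMs, the bright CMs of M25 and M116 (20 and 56 CMs) were set beside them. No gene of 13438 (0 at an adjusted p of 0.05 in edgeR, 556 at an unadjusted p under 0.05) was called between bright and dim CMs, and with the mouse as a block 0 were called as well (473). In the fit of bright CMs with the control mice, bright CMs had 273.5 and 203 normalized CPM of hBAG, so that the bright and dim CMs were far apart in M25 and less so in M116 (87.6 in dim). Against the same control mice, Ppargc1a had a log2 fold change of −1.66 in dim and −2.13 in bright CMs, Ankrd1 1.74 and 2.51, Tnni1 4.25 and 4.81, Atf3 3.87 and 3.55, Mt1 −2.37 and −2.32, and Hk2 −1.48 and −1.45. Because the comparisons share their control CMs, these values stand side by side and are no independent support for each other.

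Some genes had different values in dim and bright CMs at an unadjusted p, none past adjustment. Rpl3l was at −1.21 in dim and −2.36 in bright CMs (bright minus dim −1.16, SE 0.28, unadjusted p = 0.00682). Xirp2, an actin-binding protein of the intercalated disc, was at 248 and 146 normalized CPM in dim, 643 and 715 in bright and 305 and 404 in control mice, with a difference between bright and dim CMs of 1.76 (SE 0.30, unadjusted p = 0.0014). Gadd45g was at −2.14 in dim and −1.20 in bright CMs (bright minus dim 0.93, SE 0.25, unadjusted p = 0.0108). For Xirp2 both dim mice lay below and both bright mice above the control mice.

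**Figure D5:**
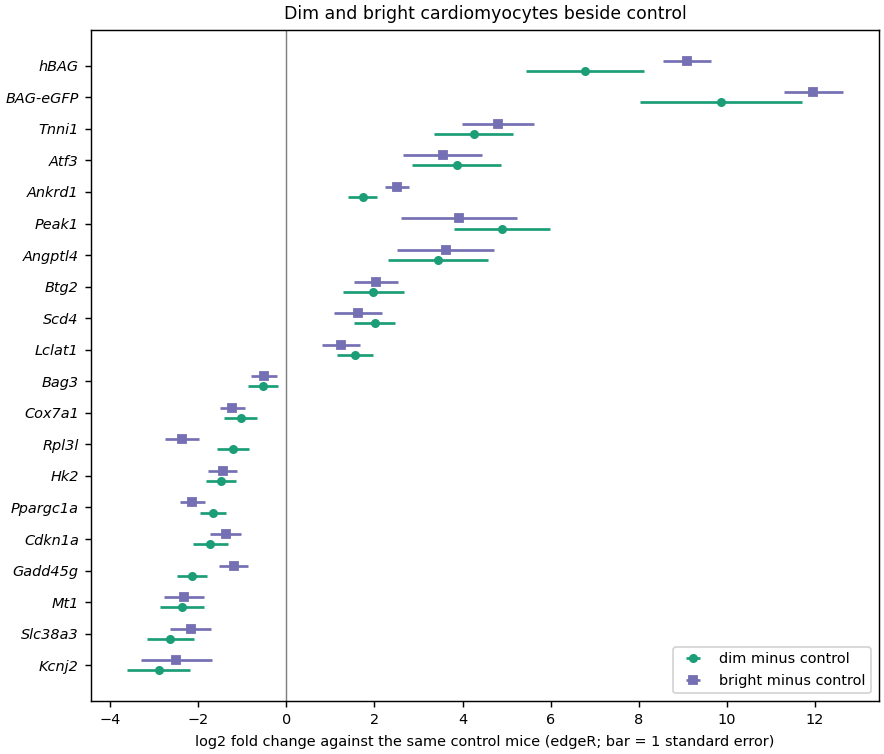
Log2 fold change of named genes in dim CMs (circles) and in bright CMs (squares) against the same control mice, from separate edgeR fits (bars are 1 SE). The transgene features were higher in bright than in dim CMs, Mt1, Hk2 and Slc38a3 lay near each other, and Rpl3l was lower in bright than in dim CMs.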

How the data were processed

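Single CMs were sequenced with SMART-seq2. The authors deposited raw counts per feature and cell, made with STAR's GeneCounts on a mouse reference to which human BAG3 and eGFP were added; the genome build, annotation and strand setting are not given in the sources used here, and the reads were not used. The table holds 55538 features, of which 23664 had a count.

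Counts of CMs with 1000 or more detected genes were summed per mouse and class. The 7 CMs left out held 487 to 1799 counts. The 4 sums of dim and control CMs were compared with edgeR 4.0.16 in R 4.3.3 (filterByExpr, TMM, glmQLFTest, Benjamini-Hochberg adjustment, threshold 0.05). The standard error is the log2 fold change divided by the root of the F statistic. Alternatives were DESeq2 1.42.0, library size alone, no filter on low counts, all cells, the plate series as a block, edgeR's bias-adjusted quasi-dispersion, equal weight of each CM with limma 3.58.1 and each mouse left out. Leaving out CMs in which markers of other cells reached 1000 CPM was chosen after seeing the data. The edgeR and DESeq2 fits were also run on simulated sums with known changes, and the outcome is not reported here. Single values per mouse were compared by two-sided exact permutation tests. Intervals are exact at the 95% level and, as reads carry no molecular identifiers, cover counting error only. Differences within a plate series used 0.5 added to normalized CPM. Bright and dim CMs are paired, as they come from the same mice; log2 differences of M25 against M116 in either class had r = 0.165 over 6144 genes (genes are no replicates).

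The genes named by rule were the transgene features and Bag3, up to 10 per direction with the smallest unadjusted p among genes with a mean of 10 CPM or more and no overlap between groups, up to 10 per direction called by DESeq2 or the block fit, and in each list up to 4 members with the smallest p and those it is known for. Others were chosen after their values were seen. Members and lists were chosen with earlier results of these data known. Promoters come from RefSeq on GRCm38.p6 and the class of Gm13394 from GENCODE, by symbol. The values of some genes that the rule takes are not reported here.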

Additional observations from a re-analysis of the deposited data

How the results depend on the processing

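The count of 0 genes called between dim and control CMs held with library size alone, all cells, the bias-adjusted quasi-dispersion and without CMs rich in markers of other cells. It was 55 with DESeq2, 58 without a filter on low counts, 12 with the plate series block and 1 with each CM weighted equally. Leaving out 1 mouse gave 3 to 824 genes: 824 without control M26, 3 without control M73, 10 without dim M25 and 8 without dim M116, the lone mouse being assumed to vary like the other group. Without control M26, the median of all genes moved to 0.92. Without CMs rich in markers of other cells the block fit called 23 and DESeq2 45 genes, which kept 9 of 12 and 24 of 55 calls (13 of the 55 were not tested there). The cause of these differences was not tested.

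Between bright and dim CMs, the fit paired by the mouse as a replicate block called 0 genes, as did the fit without it and that with all cells. Dim and control CMs of a plate series came from different mice. The difference between M25 and M116 correlated with that between M26 and M73 with r = 0.0798, against 0.165 for bright and dim CMs. Neither correlation decides whether a block suits these data. The difference in the ratio of hBAG to Bag3 counts, 0.342, was 0.330 with BAG-eGFP, 0.672 with both features, 0.342 with all cells and 0.232 as the median over cells, and lay between 0.0462 (without M116) and 0.638 (without M25) when 1 mouse was left out. The difference in the share of CMs with hBAG was 53.8 percentage points and 47.9 after thinning.

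With 2 mice per group, 1 of them with 8 CMs, the edgeR fit without a block did not call even BAG-eGFP at a log2 fold change of 9.87 (adjusted p = 0.733), and 30 of 55 DESeq2 calls had a mean under 10 CPM.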
